A study of Brassica napus with 24 samples.

Results

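Normal maturation of the anther and its pollen was followed in rapeseed (Brassica napus) by comparing 3 mock-treated arrays of anthers from large buds (An-LBs) with 3 mock-treated arrays of anthers from middle buds (An-MBs). These were 6 of the 24 one-colour arrays of the series, and all 43603 probes other than controls were considered. Plants of the cultivar Zhongshuang No. 9, selfed for 8 generations, were grown in the field. The mock group was sprayed with about 15 mL per plant of a solution holding DMF (50 ppm) with Tween 80 (5 ppm), the solvent of the male sterility inducer monosulfuron ester sodium (MES), with 0 MES. An-MBs came from buds between 1 and 3 mm long, in which the sporogenous cells pass from meiosis to early uninucleate microspores. An-LBs came from buds longer than 3 mm and spanned vacuolated microspores to mature pollen. Each replicate was a mixture of plants from 20 rows, so it averaged over many plants and over every stage that its label covers. Whole anthers were extracted, so that fewer cells of a type and less RNA per cell cannot be told apart. The An-LBs array was in position 1 and the An-MBs array in position 2 on each of slides 1 to 3, so the position on the slide and the stage cannot be told apart either.

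In the anther, diploid mother cells undergo meiosis, and the haploid microspores are released, form vacuoles, divide and become pollen grains. The tapetum, the innermost layer of the anther wall, feeds the microspores, supplies the outer pollen wall (exine) and then degenerates. In late pollen, transcripts are stored for germination and for the pollen tube, a cell that grows at its tip through actin-guided vesicle traffic, calcium and proton gradients and continuous remodelling of pectin in its wall. Mature grains also dry out and carry storage lipids in bodies coated with oleosins.

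Genes are named here by the Arabidopsis thaliana identifier (AGI) and symbol in the study's annotation, and gene roles below are those known from Arabidopsis. Rapeseed carries several copies of most Arabidopsis genes, and the files do not state which copy a probe measures. The genome positions of the probes were not analysed here. For some probes the study designed primer pairs for quantitative PCR. The pairs of 5 probes that return in the results are shown because they were designed on the rapeseed transcripts that those probes measure, and the last 5 bases at the 3′ end, from which the polymerase extends, are in capitals.
VGDH1 forward: ggtccttctcgtcGTCTC
VGDH1 reverse: aactgtccgcttcCATCC
VGDH2 forward: ttctccataactgccGTATC
VGDH2 reverse: ccattcgttccatcCTACC
PPME1 forward: agatggcattagagtgatAACAG
PPME1 reverse: ctcggtgtaggcgTAGAC
AT3G07840 forward: gatattactgcggcTCTTC
AT3G07840 reverse: gacccacctatccTTTCC
HA9 forward: gagatcaatcagtggcAATCC
HA9 reverse: acagcaatgacagtagCAATC

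On these 6 arrays, 76.4% to 80.1% of probes were well above background, and no spot was saturated. The share was 79.2 ± 0.809% (SD, n = 3) for An-MBs against 77.8 ± 1.41% for An-LBs, with an exact permutation p of 0.3 (two-sided), where 0.1 is the smallest that 3 arrays against 3 can give. Across all probes, Pearson's r of the log2 values was 0.975 to 0.986 between An-MBs arrays, 0.965 to 0.990 between An-LBs arrays and 0.833 to 0.904 between the groups. Replicate 3 of An-MBs was nearest to the An-LBs arrays (0.849 to 0.904), and replicate 2 of An-LBs was farthest from the An-MBs arrays (0.833 to 0.849). Before normalization the median signal was 921.8, 1137 and 972.7 in An-MBs against 553, 431.2 and 701.9 in An-LBs. Replicate 2 of An-LBs was thus the dimmest of the 6 arrays. Arrays were few, which limits the precision of every value.

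The brightest probes held a larger share of the signal on every An-LBs array than on any An-MBs array, at the smallest p that the design allows. The 100 brightest probes of an array carried 11.2%, 8.89% and 9.97% of all signal in An-MBs against 16.8%, 17.1% and 14.8% in An-LBs. The means were 10.0 ± 1.18% and 16.2 ± 1.22% (SD, n = 3), with an exact permutation p of 0.1 (two-sided). The 1000 brightest carried 38.3 ± 1.52% and 47.7 ± 3.01%, with the same p of 0.1. Only 9 probes were among the 100 brightest by mean signal in both groups. Of the 100 brightest in An-LBs, 86 were called higher there and 0 lower, and of the 100 brightest in An-MBs, 52 were called lower in An-LBs and 1 higher. Of all tested probes, 17.5% were called higher and 23.3% lower in An-LBs. Each set was picked by its signal in 1 of the groups compared, which favours that direction, so these counts are descriptions.

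In total, 35101 probes were detected, that is, well above background, on 3 or more of the 6 arrays and were tested with limma, and 14312 of them (40.8%) were called changed at an adjusted p under 0.05 and at least 2-fold. Among these, 6127 probes (17.5% of those tested) were higher in An-LBs and 8185 (23.3%) were lower. All values are log2 of the authors' quantile-normalized signal, and differences are An-LBs minus An-MBs, so 1 is a doubling. The median difference was 2.16 over the probes that rose, -1.58 over those that fell and -0.26 over all tested. The groups did not overlap for 14265 of the called probes, beside 68.4% of all tested probes. The direction was the same on all 3 slides for 14306 of them. Among the 31068 probes detected on all 6 arrays, 4933 rose and 6802 fell. Without any scaling between arrays, where the median difference of all tested probes was -0.996, 18.1% of the calls were higher in An-LBs, against 42.8% with the normalized values.

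**Figure D1:**
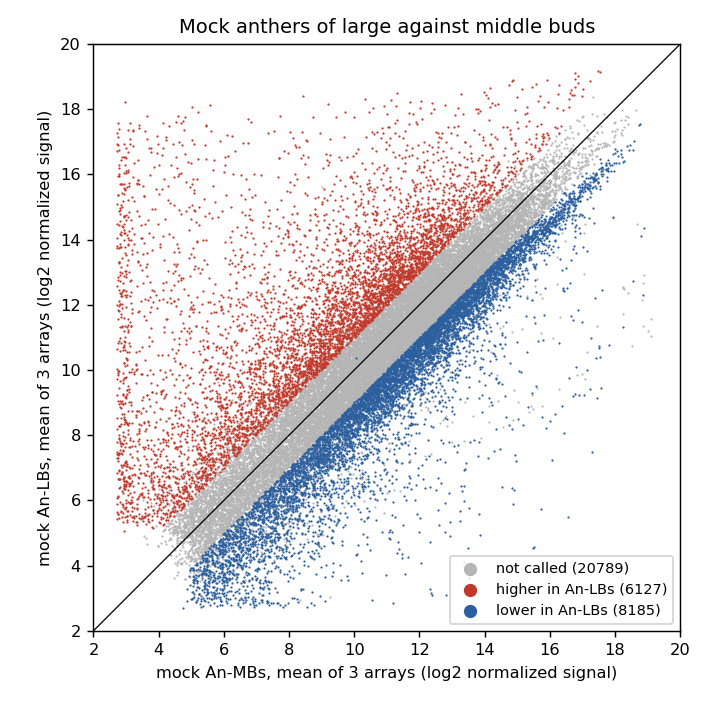
Mean log2 normalized signal of 3 mock An-LBs arrays (vertical) against 3 mock An-MBs arrays (horizontal) for the 35101 probes tested. Red points are the 6127 probes higher in An-LBs, blue points the 8185 lower and grey points those not called, and the column of red points at the left holds probes near the lower limit of signal in An-MBs.

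Rises were fewer than falls but larger. At a threshold of 4-fold, 3336 probes rose and 2305 fell. At least 10-fold differences were found for 1756 probes that rose and 609 that fell, and at least 100-fold differences for 572 and 74. For probes with no detected array in the dimmer group, the fitted fold has no firm base, and a lower bound was used instead. With these bounds, 516 probes rose and 71 fell at least 100-fold, and 176 and 4 at least 1000-fold. The largest rises included genes for a polygalacturonase, a pectin methylesterase and proline dehydrogenase, described with their groups below.

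**Figure D2:**
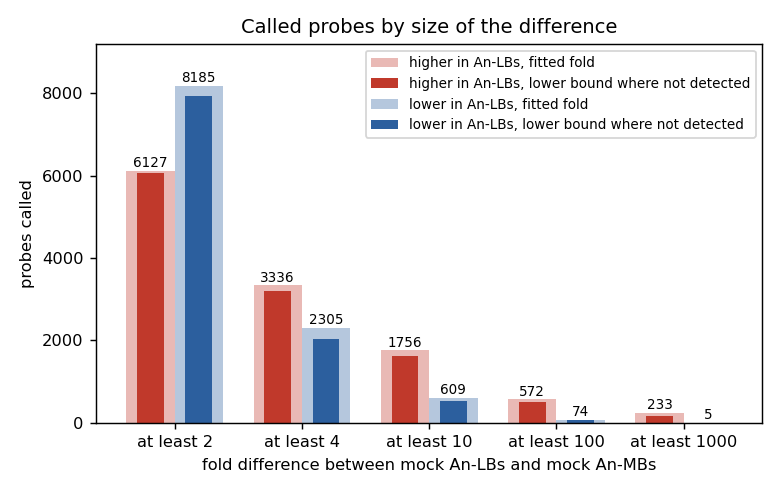
Number of probes called (vertical) that differed between mock An-LBs and An-MBs by at least the fold on the horizontal axis. Wide pale bars count fitted folds (numbers printed), and narrow dark bars use the lower bound for probes not well above background in 1 group. Falls outnumber rises at 2-fold, 8185 to 6127, and rises outnumber falls from 4-fold on.

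Many probes were seen at 1 stage only. Detection on no An-MBs array and on all An-LBs arrays was found for 712 probes, of which 704 were called, with a median bound of at least 13.9-fold and the highest at least 12700-fold. For 480 of the 712 (67.4%), no mock array of leaves (Ls) or small buds (SBs) was above background either. In the other direction, 713 probes were above background on all An-MBs arrays and on no An-LBs array, and 614 were called, with a median bound of at least 2.10-fold. Only 104 of these (14.6%) were also below background on all mock Ls and SBs arrays. A probe of either kind passed the filter through the group where it was high, so these counts are descriptions.

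The levels in the other mock organs were set beside those of the anthers. Of the 6127 probes that rose, 5192 (84.7%) had a mean in An-LBs above the means of Ls and of SBs, and so did 34.5% of all tested. Of the 572 probes with at least 100-fold fitted rises, 564 had it, and their median level was 14.32 in An-LBs against 3.90 in An-MBs, 3.55 in SBs and 3.75 in Ls. For the 74 with at least 100-fold falls the median level was 6.10 in An-LBs against 14.36 in An-MBs, 8.76 in SBs and 3.31 in Ls. The stage difference chose these sets, so their counts and levels are descriptions.

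The groups of genes below were taken from the probes that the study annotated. These were chosen by the study on the same arrays, so a count among them is no independent evidence of a direction. Of the 1346 annotated probes tested, 975 were called (72.4%), with 790 higher (58.7%) and 185 lower (13.7%) in An-LBs, and each count below is read against these shares. A probe detected on no An-MBs array passed the filter only through An-LBs, so counts and medians are also given over probes detected on all 6 arrays, where 1085 annotated probes had a median of 1.21, 564 (52.0%) rose and 168 (15.5%) fell. Where 0 probes of a group fell by the limma rule, 0 were lower at an unadjusted p under 0.05 as well, except for 1 in the amino acid group. Markers fixed for the labelled tissue came first. Of 34 probes for 23 pollen genes, 33 rose and 0 fell, with a median difference of 5.41 (5.32 with bounds), and 20 of the 21 detected on all 6 arrays rose, with a median of 3.90. Their summed linear signal ran from 193000 to 680000 in An-MBs and from 3080000 to 3440000 in An-LBs. The 1 pollen gene without a probe that rose was FIM5, a fimbrin that bundles actin, at 14.60, 14.49 and 15.03 in An-MBs against 15.01, 14.76 and 15.03 in An-LBs. LAP6, a polyketide synthase for the exine made in the tapetum, had 11.51, 4.80 and 3.91 in An-MBs against 8.28, 8.73 and 7.70 in An-LBs, a mean of 15.83 in mock SBs, and no call (1.5 ± 1.98, adjusted p = 0.54). Its An-MBs values span the An-LBs values, and without replicate 1 of An-MBs it was called higher in An-LBs (3.88, adjusted p = 0.00399). Of 12 green tissue probes, 5 fell, 1 rose and 6 were not called, with a median of -0.74. The count that fell was 2 without replicate 1 or replicate 2 of An-MBs, 3 without replicate 1 or 2 of An-LBs, 2 without replicate 3 of An-LBs, 3 with a 75th percentile shift and 9 without scaling. The 2 probes for BEL1, an ovule gene, were not called, and neither had an unadjusted p under 0.05. The part of green tissue in the other results was not tested.

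Replicate 3 of An-MBs had the highest of the 3 An-MBs values for 27 of the 34 pollen marker probes and for 54.8% of the probes that rose, against 38.6% of all tested. Replicate 2 of An-LBs had the lowest of the 3 An-LBs values for 58.7% of the probes that fell, against 37.0% of all tested. Without replicate 3 of An-MBs, 6119 probes rose and 8025 fell, and without replicate 2 of An-LBs, 5760 rose and 8058 fell.

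Pectin methylesterases, which remove methyl groups from wall pectin and so set its stiffness, and their inhibitors rose together. All 22 probes tested were called, 21 higher and 1 lower in An-LBs, with a median of 8.59 (7.80 with bounds) against -0.26 over all probes. Of the 12 detected on all 6 arrays, 11 rose, with a median of 5.02, against 1.21 for annotated probes detected on all 6. The largest rise was that of AT2G26450, at 2.71, 2.74 and 2.74 in An-MBs against 16.79, 17.04 and 16.33 in An-LBs. No An-MBs array was above background and all An-LBs arrays lay above 16, so the rise was at least 4440-fold (adjusted p = 9.17e-07), and its 3 probes rose by 12.60 to 13.99. EDA24, of the inhibitor family, rose at least 1960-fold, with 2.92, 3.06 and 2.91 in An-MBs against 15.53, 15.90 and 15.18 in An-LBs. VGD1, needed for growth of the Arabidopsis pollen tube in the style, rose by 5.54 ± 0.56 (SE), with 11.51, 12.12 and 13.75 in An-MBs against 18.02, 18.03 and 17.94 in An-LBs, and by 6.79 ± 0.61 at another probe. For its homologue VGDH1 the values were 13.98, 14.48 and 16.06 in An-MBs against 18.90, 19.15 and 18.51 in An-LBs, a rise of 4.02 ± 0.55 (adjusted p = 0.00174). Replicate 3 was the highest of the An-MBs arrays and still below all An-LBs arrays. VGDH2 differed between its probes. A probe with 3.20, 2.81 and 2.79 in An-MBs against 14.65, 15.30 and 14.19 in An-LBs rose at least 1110-fold, and a probe already high in An-MBs, with 15.87, 16.77 and 17.92 in An-MBs against 19.03, 18.98 and 19.03 in An-LBs, rose by 2.16 ± 0.50. PPME1, the pollen-specific methylesterase, rose by 7.17 ± 0.88 and 3.19 ± 0.54 at its 2 probes, and AT5G07430 by 9.99 ± 0.96. The member that fell was ATPMEPCRD, annotated as a methylesterase, with 12.15, 11.04 and 11.85 in An-MBs against 7.44, 7.86 and 6.98 in An-LBs (-4.25 ± 0.36, adjusted p = 0.000452).

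Polygalacturonases and pectate lyases cut the pectin chain, and pectin acetylesterases remove its acetyl groups. Of 31 probes for polygalacturonases, pectate lyases and pectin acetylesterases, 26 rose, 0 fell and 5 were not called, with a median of 2.7, and 17 of the 21 detected on all 6 arrays rose, with a median of 2.28. At 1 probe the polygalacturonase-like gene AT3G07850 had 2.76, 2.76 and 2.74 in An-MBs against 17.68, 17.66 and 17.35 in An-LBs, and its rise of at least 7970-fold (adjusted p = 7.55e-07) was the largest of any annotated probe named by the rule. Its other probe had 6.85, 6.78 and 8.24 in An-MBs against 9.52, 9.85 and 9.53 in An-LBs and rose by 2.34 ± 0.42. The pectate lyases AT2G02720 and AT59 rose at least 3900-fold and 2940-fold, with An-LBs values of 16.60, 16.90 and 16.10 and 16.25, 16.39 and 15.72. All 9 probes for AT3G07840 rose, by 1.8 to 5.47. They differed in where they started. The probe with the largest rise had 8.65, 9.19 and 10.88 in An-MBs against 15.21, 15.12 and 14.78 in An-LBs, and another had 15.002, 15.67 and 17.08 in An-MBs against 18.88, 18.84 and 18.98 in An-LBs and rose by 2.98 ± 0.52. AT5G48140 rose at all 3 of its probes, by 1.36 to 4.41. AT3G07820 had 6.83, 6.80 and 7.87 in An-MBs against 7.59, 7.57 and 7.62 in An-LBs and was not called (0.43 ± 0.31, adjusted p = 0.276).

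Other wall genes were more mixed. Of 39 probes, 30 rose, 1 fell and 8 were not called, with a median of 4.69 (4.50 with bounds), and 22 of the 29 detected on all 6 arrays rose, with a median of 3.38. The count that fell was 3 without replicate 2 of An-MBs, 2 without replicate 3 of An-MBs or replicate 1 or 2 of An-LBs, and 5 without scaling. The probe that fell was 1 of 5 for BXL1, a beta-xylosidase, with 8.12, 5.8 and 6.97 in An-MBs against 4.87, 4.43 and 4.70 in An-LBs (-2.30 ± 0.57, adjusted p = 0.0158), and the other BXL1 probes were not called, among them one at -4.11 ± 1.78 (adjusted p = 0.0923). BGAL13, a beta-galactosidase, had 4.43, 3.07 and 4.91 in An-MBs against 17.62, 17.69 and 17.44 in An-LBs, with 1 An-MBs array above background, and rose by 13.45 ± 0.47. The other BGAL13 probe rose by 3.42. Arabinogalactan proteins, which are glycoproteins of the cell surface, were among the largest rises of the list. AGP41 had 2.72, 5.37 and 4.89 in An-MBs against 17.60, 17.53 and 17.29 in An-LBs, AGP23 rose at least 3300-fold, and FLA3, which microspores of Arabidopsis need to develop, rose by 10.22 ± 0.33. The cellulose synthase-like genes CSLD1 and CSLD4, which build the wall of the tube tip, rose at least 352-fold and by 5.37 ± 0.50. GATL4, a galacturonosyltransferase-like gene, rose at least 2210-fold, and RGP1, which makes the arabinose donor for wall polymers, by 2.28 ± 0.20. Against these, FLA5 had 15.23, 15.06 and 16.34 in An-MBs against 14.10, 10.03 and 13.56 in An-LBs and UGE3, a UDP-glucose epimerase, 13.33, 12.82 and 13.92 in An-MBs against 12.81, 8.44 and 12.98 in An-LBs, and neither was called (adjusted p = 0.0583 and 0.222). In both, replicate 2 of An-LBs was far below the other An-LBs arrays, and FLA5 was called lower without it (-1.71, adjusted p = 0.0248) and without replicate 1 of An-LBs (-3.75, adjusted p = 0.0422). FLA5 was also called lower with all 24 arrays in 1 fit (adjusted p = 0.00471), with normexp background correction (0.0492), without scaling (0.0288) and with the replicate number as a block (0.0394).

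**Figure D3:**
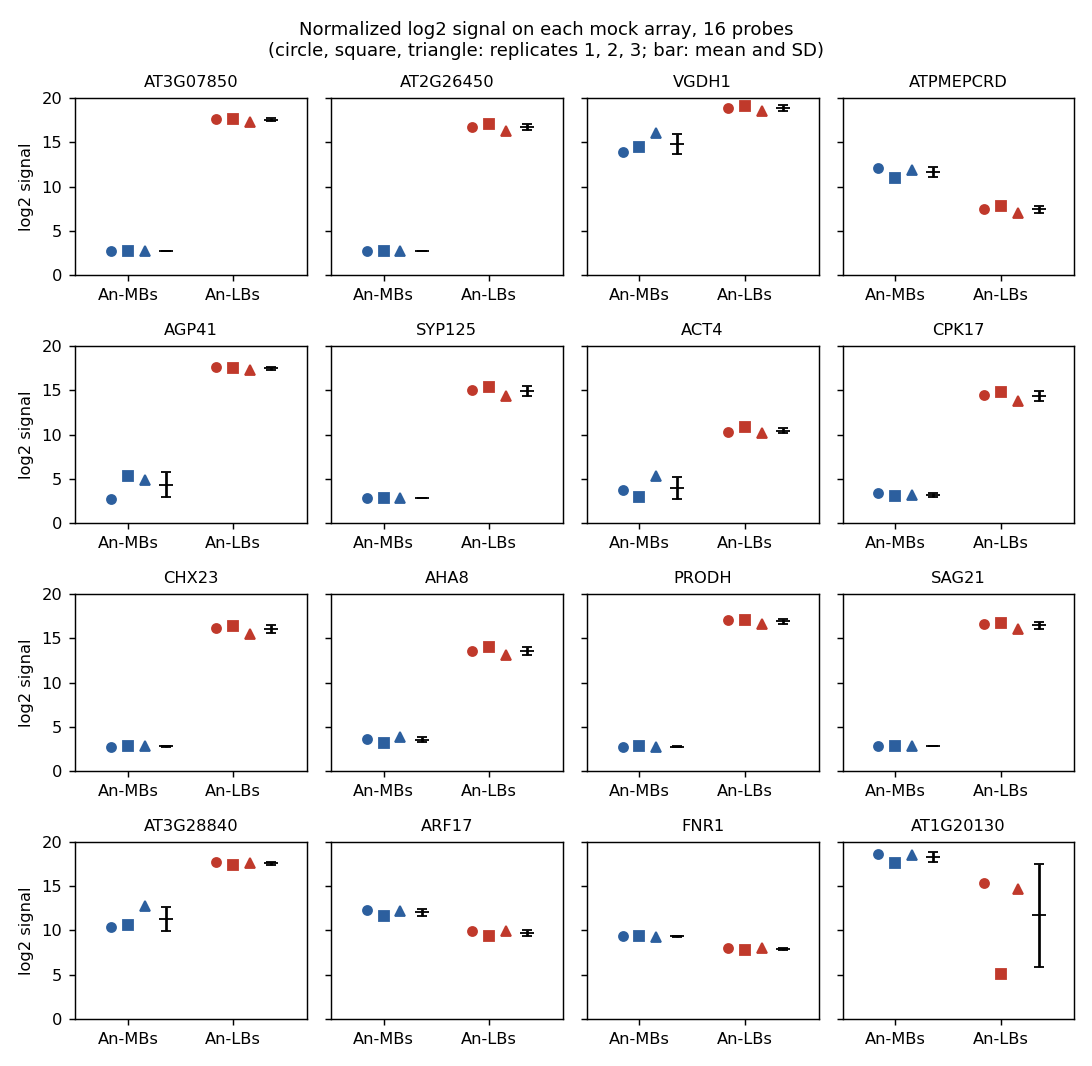
Log2 normalized signal (vertical) on each of the 6 mock arrays for 16 probes, An-MBs drawn in blue and An-LBs in red. Markers are single arrays and the black bar is the group mean and SD (n = 3). Probes such as AT3G07850 and PRODH sit below 3 in An-MBs and above 16 in An-LBs, VGDH1 starts bright, ARF17 and FNR1 fall, and AT1G20130 has 1 An-LBs array far below the other 2.

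The machinery of tip growth rose as well. Of 31 probes for actin, ROP signalling and exocytosis, 29 rose, 1 fell and 1 was not called, with a median of 5.02 (4.82 with bounds), and 19 of the 21 detected on all 6 arrays rose, with a median of 3.14. SYP125, a syntaxin of the pollen plasma membrane, had 2.82, 2.83 and 2.81 in An-MBs against 15.03, 15.38 and 14.33 in An-LBs and rose at least 1270-fold, and its relative SYP131 rose at least 99.1-fold. ROPGEF12, which activates the ROP switches that mark the tip, and RIC5, which ROPs bind, rose at least 1160-fold and 742-fold. Both were below background on every An-MBs array. ANX2, a receptor kinase that keeps the tube from bursting, had 6.74, 6.49 and 8.35 in An-MBs against 14.63, 14.85 and 14.11 in An-LBs. ARO1, which polarises the tube, had 3.33, 5.42 and 3.48 in An-MBs against 9.38, 9.81 and 8.91 in An-LBs, where An-MBs replicate 2 was the only one above background, and rose by 5.29 ± 0.60. The actin ACT4 had 3.74, 2.89 and 5.28 in An-MBs against 10.31, 10.84 and 10.23 in An-LBs and rose by 6.49 ± 0.60. ACT11, also seen in other organs, rose by only 1.28 ± 0.29 at the probe with 13.35, 12.54 and 13.50 in An-MBs against 14.47, 14.61 and 14.15 in An-LBs, and its call was lost without replicate 2 of An-MBs, where the difference was 0.99. ADF7, which severs actin, rose by 4.82 ± 0.40 at 1 probe and by 2.88 at the other. PRF3, a profilin, was the member that fell, with 12.05, 12.46 and 12.07 in An-MBs against 10.97, 10.63 and 11 in An-LBs.

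Calcium genes rose in 19 of 22 probes, with 0 lower and a median of 1.95 (1.88 with bounds), and in 13 of the 16 detected on all 6 arrays, with a median of 1.73. CPK17, a kinase of the tube tip, had 3.44, 3.02 and 3.13 in An-MBs against 14.46, 14.84 and 13.77 in An-LBs and rose at least 863-fold, and CPK24 rose at least 41.0-fold. Each had another probe with 2 An-MBs arrays above background, which rose by 7.1 ± 0.45 for CPK17 and 8.69 ± 1.13 for CPK24. RHS1, an EF-hand protein, rose at least 1670-fold, with 3.06, 3.24 and 3.27 in An-MBs against 15.25, 15.69 and 14.98 in An-LBs. The tip channel CNGC18 and the calcium pump ACA2 were present in An-MBs and rose by 3.70 ± 0.35 and 4.18 ± 0.46. CAM3, calmodulin, rose by 1.42 to 2.01 at all 6 probes.

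Of 16 probes for proton pumps and the transport of cations and water, 9 rose, 1 fell and 6 were not called, with a median of 3.26. Over the 10 probes detected on all 6 arrays, 3 rose and the median was 1.00, against 52.0% and 1.21 for annotated probes. CHX23, a cation exchanger of pollen, had 2.75, 2.80 and 2.80 in An-MBs against 16.13, 16.40 and 15.49 in An-LBs and rose at least 2710-fold. SKOR, a potassium channel, rose at least 758-fold. Of the plasma membrane proton pumps, AHA8 rose at least 501-fold, with 3.57, 3.21 and 3.8 in An-MBs against 13.62, 14.04 and 13.05 in An-LBs, AHA6 by 4.43 ± 0.47, and HA9 by 2.25 ± 0.63, with 15.14, 15.47 and 16.86 in An-MBs against 18.71, 16.99 and 18.53 in An-LBs. The HA9 call was lost without any 1 of 4 arrays: the difference was 1.91 without replicate 1 and 2.08 without replicate 2 of An-MBs, and 1.93 without replicate 1 and 2.03 without replicate 3 of An-LBs. It was also lost with An-MBs replicates 1 and 2 averaged (1.99, adjusted p = 0.0714). AHA1, the pump of vegetative cells, had 12.81, 12.77 and 13.16 in An-MBs against 13.38, 13.61 and 13.35 in An-LBs and did not reach 2-fold. TIP1;3, a water channel of the pollen vacuole, rose by 4.26 ± 0.45, and the potassium transporter KUP9 fell by 1.61 ± 0.15.

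Of 19 probes for carriers of sugars, peptides and related compounds, 13 (68.4%) rose and 0 fell, with a median of 1.82, beside the 58.7% of annotated probes that rose. OPT1, an oligopeptide transporter, rose by 6.75 to 8.72 at 4 probes, and SWEET11, a sucrose exporter, by 4.79 to 5.42 at 3, with 5.81, 4.95 and 5.68 in An-MBs against 10.87, 12.21 and 9.62 in An-LBs at the probe with the largest rise. PTR1 rose by 2.44 ± 0.24. The mitochondrial ADP/ATP carriers AAC1 and AAC2 rose by 1.66 ± 0.13 and 1.82 ± 0.14. Starch enzymes did not pass the rule in any of 6 probes, with a median of 0.21. For example, BAM1, a beta-amylase, had 15.84, 15.51 and 15.72 in An-MBs against 16.16, 16.34 and 16.10 in An-LBs, a difference of 0.51 ± 0.16 that missed 2-fold (adjusted p = 0.0325). At an unadjusted p under 0.05 in limma, 3 of the 6 were higher and 0 lower.

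Genes of desiccation and of oil bodies rose in 9 of 12 probes, with 0 lower and a median of 3.54. Of the 7 detected on all 6 arrays, 4 (57.1%) rose, with a median of 1.48, near the 52.0% and 1.21 for annotated probes. With no filter on dim probes the median of the group was 1.89. At the probe of SAG21, a late embryogenesis abundant protein, with the larger rise, values were 2.87, 2.87 and 2.83 in An-MBs against 16.59, 16.73 and 16.04 in An-LBs, a rise of at least 3690-fold. AT5G27980, a seed maturation protein, rose at least 2820-fold, and the oleosin gene AT1G48990 at least 1320-fold. OLEO4 rose by 5.8 ± 0.25, and TSPO, a membrane protein induced by drought, by 5.19 ± 0.34. The oleosin gene AT2G25890 was already high in An-MBs, with 15.47, 15.27 and 16.51 in An-MBs against 16.69, 15.78 and 16.51 in An-LBs, and was not called.

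Among amino acid genes, 8 of 11 probes rose and 0 fell, with a median of 1.59, and 7 of the 10 detected on all 6 arrays rose (1.49). Without scaling 5 rose and 1 fell. PRODH, proline dehydrogenase, which starts the breakdown of proline, had 2.75, 2.78 and 2.76 in An-MBs against 17.03, 17.10 and 16.56 in An-LBs, a rise of at least 5030-fold (adjusted p = 7.72e-07). P5CS1, which makes proline, rose by 3.08 ± 0.30, and GDH2, a glutamate dehydrogenase, by 5.14 ± 0.25. Lipid genes were mixed, with 9 of 16 probes higher, 2 lower and 5 not called, and a median of 1.21 (0.99 with bounds). The 9 are 56.2% of the list, beside 58.7% of annotated probes. The count that fell was 1 without replicate 1 of An-MBs or of An-LBs and 4 without replicate 2 of An-LBs. The lipase-like gene AT1G20135 had 6.69, 4.55 and 7.14 in An-MBs against 16.73, 16.41 and 16.59 in An-LBs. The peroxisomal thiolases KAT5 and KAT2, of fatty acid breakdown, rose by 1.88 ± 0.36 and 1.23 ± 0.21, and PLDDELTA, a phospholipase D, by 2.64 ± 0.23 and 2.29 ± 0.26 at 2 of 3 probes, while the other was not called (-0.27 ± 0.27). KASIII, which starts fatty acid synthesis in plastids, fell by 2.47 ± 0.17, with 8.22, 8.28 and 8.11 in An-MBs against 5.76, 5.95 and 5.51 in An-LBs. The lipase-like gene AT1G20130 had 18.65, 17.60 and 18.51 in An-MBs against 15.39, 5.03 and 14.71 in An-LBs and was not called (adjusted p = 0.0842), and without replicate 2 of An-LBs it was lower by 3.21 (adjusted p = 0.0028). It was also called lower with all 24 arrays in 1 fit (adjusted p = 0.0117) and without scaling (0.0476). In all, 303 probes at least 4-fold lower were not called, and in 259 of them replicate 2 was the lowest An-LBs array, whereas 55 probes at least 4-fold higher were not called. Of 7 probes for autophagy and vacuolar proteases, 1 rose and 0 fell, with a median of 0.25, and the count that rose was 2 without replicate 3 of An-MBs.

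**Figure D4:**
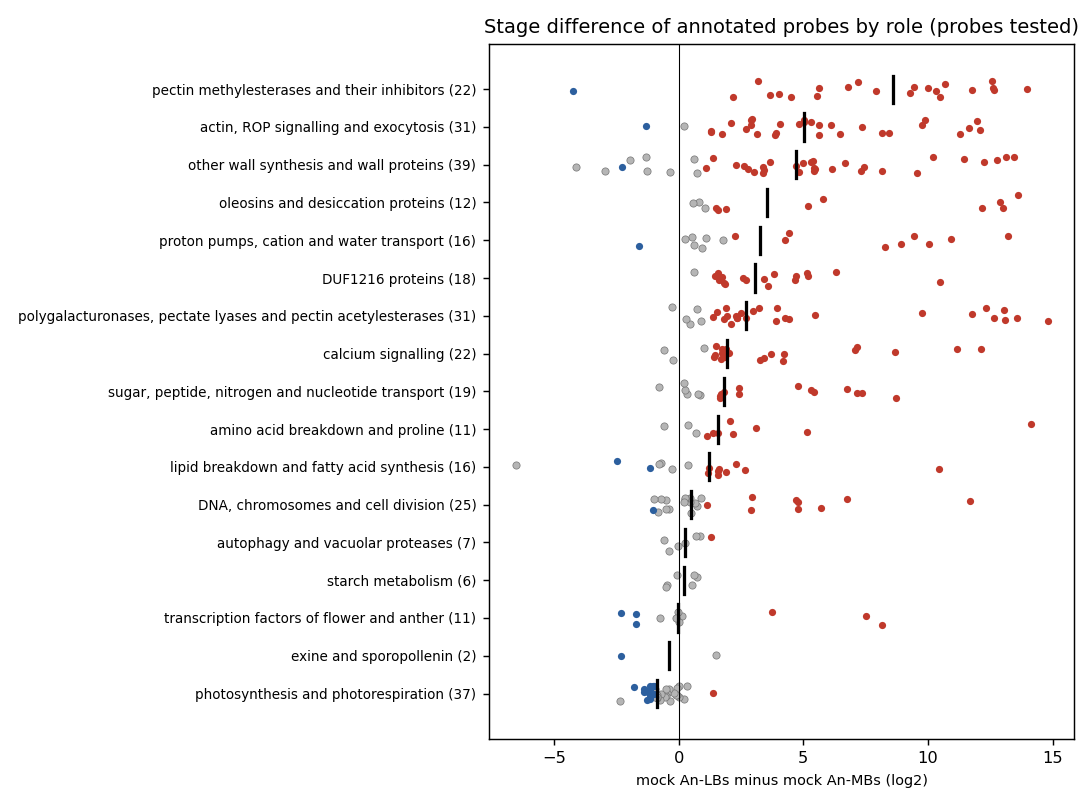
Difference between mock An-LBs and An-MBs (log2, horizontal) for each annotated probe tested, by role. Red points rose, blue points fell, grey points were not called and the black line is the median of the role, from 8.59 for pectin methylesterases and their inhibitors to -0.88 for photosynthesis.

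Photosynthesis was the role with the lowest median, -0.88 over 37 probes. Of these, 14 fell, 1 rose and 22 were not called, beside 23.3% of all tested probes and 13.7% of annotated probes that fell. FNR1, which passes electrons to NADP, had 9.39, 9.32 and 9.27 in An-MBs against 7.99, 7.82 and 8.003 in An-LBs and fell by 1.39 ± 0.14. PSAK, of photosystem I, fell by 1.81 ± 0.35, and PSAO, of the same complex, was the member that rose, by 1.37 ± 0.20. RCA, rubisco activase, had 11.40, 11.76 and 11.13 in An-MBs against 11.22, 11.58 and 11.26 in An-LBs and was not called. At an unadjusted p under 0.05, 22 of the 37 were lower. The count that fell depended on single arrays, with 7 without replicate 1 of An-MBs, 6 without replicate 2 of An-MBs and 8 without replicate 2 of An-LBs. In each of these fits the share that fell was no larger than that of all tested probes. The count also depended on scaling, with 9 lower after a 75th percentile shift and 27 lower, 0 higher and a median of -1.5 without scaling.

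Genes of DNA, chromosomes and cell division had a median of 0.50, with 9 of 25 probes higher, 1 lower and 15 not called. Of the 22 detected on all 6 arrays, 6 rose. Rises were a smaller share here than among annotated probes, where 58.7% of those tested and 52.0% of those detected on all 6 arrays rose. NEK5, a kinase, rose at least 929-fold, with 2.76, 2.80 and 2.76 in An-MBs against 14.35, 14.91 and 14.13 in An-LBs. The histone chaperone NAP1;2 and the histone HTA10 rose by 4.72 ± 0.36 and 2.90 ± 0.42. HMGB2, a chromatin protein, had 18.09, 18.49 and 18.24 in An-MBs against 17.42, 17.37 and 17.54 in An-LBs and did not reach 2-fold. MYB3R5, a cell cycle regulator, fell by 1.06 ± 0.16, and its call was lost without replicate 1 of An-LBs (-0.97), with quantile normalization over the 6 arrays (-0.97) and with normexp background correction (-0.78). The count that fell was 2 without replicate 3 of An-MBs. Of 11 probes for transcription factors of the flower and anther, 3 rose, 3 fell and 5 were not called, with a median of -0.04. BZIP34, which shapes the pollen wall, had 6.32, 8.69 and 5.17 in An-MBs against 14.20, 14.94 and 13.58 in An-LBs, and MYB88 rose by 8.15 ± 0.58. ARF17, which Arabidopsis needs for the pollen wall, had 12.28, 11.60 and 12.23 in An-MBs against 9.93, 9.33 and 9.94 in An-LBs and fell by 2.31 ± 0.27. ARF2 and AGL15 each fell by 1.73, and SEP2, a floral organ identity gene, had 12.95, 13.41 and 13.20 in An-MBs against 13.09, 13.06 and 13.30 in An-LBs and was not called. All 6 genes for proteins with the domain of unknown function DUF1216 had a probe that rose, in 17 of 18 probes with a median of 3.06, and 14 of the 15 detected on all 6 arrays rose (2.58). AT3G28840 had 10.34, 10.62 and 12.80 in An-MBs against 17.71, 17.35 and 17.67 in An-LBs, AT5G61720 had 2.79, 2.83 and 5.52 in An-MBs against 14.36, 14.10 and 14.12 in An-LBs, and in all 18 probes replicate 3 was the highest An-MBs array. These were the probes with the largest rise of each gene. Rises ran from 3.8 to 6.3 over the 3 probes of AT3G28840 and from 3.4 to 10.5 over the 3 of AT5G61720.

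Outside these groups, AT4G25900, a mutarotase-like gene, AT1G11770, of the berberine bridge family, AT2G19000 and the upstream reading frame CPuORF45 were among the 10 largest annotated rises, at least 6000-fold, 7700-fold, 3810-fold and 3270-fold. The probe with the largest rise of all, A_46_P133194, has no gene name here. Its values were 2.84, 3.21 and 2.82 in An-MBs against 18.11, 18.49 and 18.09 in An-LBs, and it rose at least 12700-fold (adjusted p = 7.55e-07).

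Annotated falls were smaller. CRK40, a cysteine-rich receptor kinase, had 8.37, 7.38 and 8.67 in An-MBs against 2.83, 2.81 and 3.39 in An-LBs, with no An-LBs array above background, and fell at least 9.69-fold. AT2G47485 fell at least 11.7-fold and the B3-type transcription factor gene AT5G66980 at least 3.01-fold. MEE14, with 10.99, 12.24 and 12.72 in An-MBs against 8.45, 7.26 and 8.53 in An-LBs, AT2G04800, with 8.33, 8.05 and 8.48 in An-MBs against 4.86, 2.73 and 5.56 in An-LBs, and AT4G27450 fell by 3.90 ± 0.55, 3.90 ± 0.71 and 3.14 ± 0.44. In RAX2, a MYB gene of axillary meristems, replicate 2 of An-LBs was far below the others, at 11.58, 11.55 and 11.53 in An-MBs against 9.02, 4.83 and 9.44 in An-LBs, and the call (adjusted p = 0.0369) was lost without any 1 of the An-MBs arrays (adjusted p = 0.0916, 0.0857 and 0.0847 without replicates 1, 2 and 3), and with replicates 1 and 2 averaged (0.0867). RPB5E, an RNA polymerase subunit, fell by 3.37 ± 0.57 and AT5G36710 by 3.64 ± 0.90. The 2 largest falls of all were at probes with no gene name here. A_46_P209584 had 17.70, 15.77 and 16.18 in An-MBs against 5.31, 4.61 and 6.56 in An-LBs and A_46_P212564 18.15, 15.09 and 13.20 in An-MBs against 5.26, 2.83 and 5.48 in An-LBs, where the An-MBs arrays themselves spread widely. Their means in mock SBs were 12.94 and 18.50.

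The study also held the same stages of MES-treated plants, sprayed with 0.1 μg/mL MES, whose anthers are male sterile. Whether the stage difference was the same there was tested as the difference of the 2 stage differences over the 12 anther arrays. Of 36615 probes tested, 3815 (10.4%) differed at an adjusted p under 0.05, and the signed value of mock minus MES was above 0 in 2362 and below 0 in 1453. A value below 0 also arises where a probe fell further in mock, as in 1013 of the 1453. Mock and MES arrays were on separate slides, but each stage difference lies within 1 treatment. MES An-MBs replicate 2 was dim, with a median signal of 383.9 against 1098 and 1162, and MES An-LBs replicate 2 was on slide 7 rather than slide 5. Without both, 6738 probes differed, which included 3502 of the 3815.

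Of the 6127 probes that rose in mock, 2187 (35.7%) had the larger stage difference in mock and 26 in MES, at an adjusted p under 0.05. The median stage difference of the 6127 in MES was 0.82. Of the 572 with at least 100-fold rises in mock, 523 (91.4%) had the larger stage difference in mock at this threshold. The median stage difference of the 572 in MES was 0.24. Of the 8185 that fell, 1013 (12.4%) had the more negative stage difference in mock and 3 in MES at this threshold. The median of the 8185 in MES was -0.79. The mock difference chose these sets and is also part of the difference tested, so these counts, shares and MES medians are descriptions. In MES alone, 1420 probes were called higher and 1156 lower in An-LBs. The 1067 called higher in both treatments were 17.4% of the mock calls and 75.1% of the MES calls, and the 907 called lower in both were 11.1% and 78.5%. Without both replicates 2, MES calls were 886 higher and 883 lower.

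**Figure D5:**
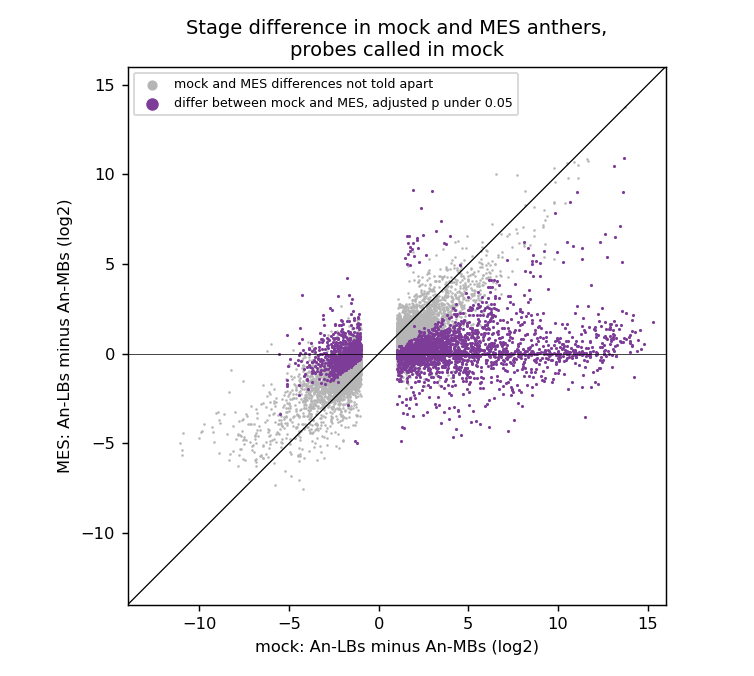
Stage difference (An-LBs minus An-MBs, log2) in MES anthers (vertical) against mock anthers (horizontal) for probes called in mock. Purple points differed between the treatments (adjusted p under 0.05), grey points did not, and the diagonal marks equal differences. Most points beyond 6.64 (100-fold) in mock lie near 0 in MES, with a median of 0.24.

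At an adjusted p under 0.05, 26 of the 34 pollen marker probes had mock minus MES above 0 and 1 below 0. Without both MES replicates 2 these were 27 and 1. The study chose the annotated probes for a difference between MES and mock on these same arrays. These counts are therefore descriptions and no independent evidence, beside the 10.4% of all tested probes that differed. In 5 of the named genes at or near background in mock An-MBs, the MES stage difference was between 0.02 and 0.67. ACT4 differed between stages by 6.49 in mock and 0.02 in MES, CPK17 by 11.16 and 0.10, AHA8 by 10.04 and 0.67, AT2G26450 by 13.99 and 0.09, and PRODH by 14.14 and 0.45. The adjusted p of the difference between treatments ran from 3.26e-09 for PRODH to 0.000115 for ACT4. The MES means of An-MBs and An-LBs lay near the lower limit of signal, such as 2.8 and 3.2 for PRODH, 3.3 and 3.4 for AT2G26450 and 4.0 and 4.6 for AHA8. These differences are fitted values with no firm base, and a small MES difference there is no measured lack of change. For SAG21 the stage difference was 13.59 in mock and 9.03 in MES at 1 probe, larger in mock (adjusted p = 5.16e-06), and 12.91 and 0.99 at the other (adjusted p = 6.84e-06).

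Mock minus MES was below 0 at an adjusted p under 0.05 for single probes of several groups. Counts of both signs are at that threshold. Below 0 were 2 of 22 pectin methylesterase probes (16 above 0) and 6 of 31 polygalacturonase and related probes (13 above 0). So were 4 of 18 DUF1216 probes (5 above 0) and 4 of 12 desiccation and oil body probes (6 above 0). These probes too were chosen by the study for a difference between MES and mock, so the counts are descriptions. Examples were picked after their values were seen. The VGDH2 probe that was already high in mock An-MBs differed between stages by 2.16 in mock and 6.44 in MES (adjusted p = 0.0108), where the MES An-MBs mean was 3.53 against 16.85 in mock. Its MES An-LBs mean stayed below the mock An-MBs mean, so the larger stage difference in MES was not a higher level there. The other VGDH2 probe differed by 11.78 in mock and 0.64 in MES (adjusted p = 1.8e-06). Of the 9 probes for AT3G07840, 6 were below 0 and 1 was above 0 at that threshold, and 2 were not called. AT3G07840 differed by 2.98 and 1.91 in mock and by 9.09 and 9.11 in MES at 2 of the 6 (adjusted p = 0.000143 and 9.84e-06). At the probe called above 0 it differed by 5.47 in mock and 1.10 in MES (adjusted p = 0.00237). AT5G48575, a DUF1216 gene, differed by 1.87 in mock and 5.82 in MES (adjusted p = 0.0191, and 0.0509 without both MES replicates 2). ATPMEPCRD fell in mock, with a stage difference of -4.25 in mock and 3.26 in MES (adjusted p = 0.000575), and FLA5 had -2.98 and 4.08 (adjusted p = 0.00613). For all these genes the values are differences between stages and not levels. Where MES An-MBs lay near the lower limit of signal, as for VGDH2, the size of the MES stage difference has no firm base. The paper lists 1 of the 2 AT3G07840 probes above and the FLA5 probe as far lower in MES than in mock An-MBs.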

How the data were processed

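RNA of mock An-MBs and An-LBs was hybridised by the study to Agilent Brassica 1-colour arrays, 1 array per sample. The authors extracted spot intensity with Agilent Feature Extraction (version 9.1 per the labels, 10.7.3.1 per the file headers) and quantile-normalized it over all 24 arrays in GeneSpring. The deposited log2 values of the value table were used for the tests, and their scale and direction were checked against a quantile normalization of the deposited processed signal intensity (median absolute difference of 6.54e-07). The processed signal, its flag for spots well above background and its outlier flag came from the deposited scanner files. Quantile normalization gives every array the same distribution, so a change shared by most transcripts is not seen.

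Control spots were left out, spots of a probe were averaged, and a probe whose spots were all outlying on an array got no weight there. Probes with that flag on 3 or more of the 6 arrays were tested with limma 3.58.1 in R 4.3.3 (data.table package, version 1.17.8), two-sided, on the 6 arrays alone, with Benjamini-Hochberg adjustment over all probes tested. A change was called at an adjusted p under 0.05 and at least 2-fold. The stage difference of mock against that of MES was tested in 1 fit of the 12 anther arrays. Where no array of the dimmer group was well above background, a lower bound of the fold was computed from the mean of the brighter group and, for each dim array, the higher of the probe's own value and the lowest value among probes well above background. Errors after a difference are limma standard errors. The labels and methods call the 3 samples of a group biological replicates, and the p-values measure the spread between these samples. Names within the deposit hint that An-MBs replicates 1 and 2 may come from 1 extract, which was not tested, and in that case the An-MBs errors and p-values are too small. With the pair averaged into 1 sample, 13411 probes changed, against 14312.

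The probes named were those of the gene groups, the 10 annotated genes that rose most and the 10 that fell most with no overlap between groups, and the 2 probes that rose most and the 2 that fell most of all. Genes of a group that the text gives as examples were picked after their values were seen. The groups, markers and comparison were chosen with earlier results of these data known. None of 40632 array identifiers (0) matched the RefSeq gene table, so names come from the study's annotation. Alternatives were other normalizations, no scaling, normexp background correction with an offset of 50, other filters and thresholds, all 24 arrays in 1 fit, the replicate number or slide as a block, the methods' t-test and leaving out each array.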

Additional observations from a re-analysis of the deposited data

Results flagged for a closer look

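The results below were singled out because the stage difference (An-LBs minus An-MBs, log2) differed between mock and MES anthers in limma's test of that difference. At an adjusted p under 0.05 this held for 3815 probes. It held for 2187 of the probes that rose in mock with the larger rise in mock, for 1013 of those that fell with the larger fall in mock, for 523 of those at least 100-fold higher in mock An-LBs, and for 26 of the pollen marker probes. The mock difference chose the sets of probes that rose or fell, and the study chose the annotated probes for a difference between MES and mock. The counts within these sets are therefore descriptions. No test for outlying samples was run in groups of 3 arrays.

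For AT2G26450 the mock stage difference exceeded that of MES by 13.90 (adjusted p = 6.87e-07), for PRODH by 13.69 (3.26e-09), for CPK17 by 11.06 (2.22e-08), for AHA8 by 9.37 (2.33e-05), for ACT4 by 6.48 (0.000115) and for SAG21 by 4.56 (5.16e-06). With both MES replicates 2 left out these were 13.07, 13.47, 10.93, 9.81, 6.52 and 4.56. All are fitted values whose size has no firm base. Apart from SAG21 in MES An-LBs, means in mock An-MBs and in MES at both stages lay near the lower limit of signal.

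Mock minus MES was negative in 6 of the named probes singled out, which is a statement on stage differences and not on levels in MES. It was -4.28 for VGDH2 (adjusted p = 0.0108), -6.11 and -7.21 for 2 of the 9 probes of AT3G07840 (0.000143 and 9.84e-06), -3.95 for AT5G48575 (0.0191), -7.51 for ATPMEPCRD (0.000575) and -7.06 for FLA5 (0.00613). With both MES replicates 2 left out, the adjusted p was 0.0282, 0.00258, 0.000374, 0.0509, 0.00649 and 0.0232 in the same order. Where MES An-MBs lay near the lower limit of signal, as for VGDH2, the size of these values has no firm base either.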

How the results depend on the processing

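Counts of changed probes stayed within 1.5 times of 14312 except at a 4-fold threshold (5641, with 3336 higher and 2305 lower) and by the methods' t-test at an unadjusted p under 0.001 (5211, with 2259 and 2952); after Benjamini-Hochberg adjustment the t-test gave 12478. Without scaling 3666 probes were higher and 16562 lower, and with no fold threshold 8163 and 12281 (39.9% higher). Leaving out 1 array gave 12971 to 14367 changed probes, 5649 to 6167 higher and 7322 to 8200 lower. The test against MES gave 2516 probes without mock An-LBs replicate 1 and 7400 without MES An-MBs replicate 2, the lowest and highest, and the subsets 1746 to 3045 and 509 to 525. Without both MES replicates 2, an alternative chosen after seeing the data, it gave 6738.

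Of 110 named probes, 58 kept their direction and call in every setting that tested them (21 or 22 settings, since dim probes left the filter for all 6 arrays). Directions turned for HMGB2 (0.035) and SEP2 (0.094) with a 75th percentile shift, for AT3G07820 (-0.42), FIM5 (-0.26), AHA1 (-0.092) and PGM (-0.26) without scaling, for RCA (0.089) and SEP2 (0.073) without An-MBs replicate 2 and for SEP2 (0.008) without An-LBs replicate 2; leaving out 1 array gave -0.23 to 0.089 for RCA and -0.154 to 0.073 for SEP2. None of these was called. Without scaling the calls of ACT11 (0.72) and PSAO (0.75) ended, and the medians of the starch (-0.58), DNA and division (-0.31) and autophagy (-0.45) groups turned. With An-MBs replicates 1 and 2 averaged, HA9 and RAX2 lost their calls and 2 green tissue probes fell instead of 5. RAX2 was not called with no filter on dim probes (adjusted p = 0.0579).

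With the replicate number as a block, which is also the slide, 14392 probes changed, 13872 of them shared, and the test against MES gave 3463. Deviations of same-numbered samples correlated at -0.03, 0.13 and 0.24 over 31068 probes, so the numbers were not taken as pairs. FLA5 was called under the replicate block (adjusted p = 0.0394). For the share of signal in the brightest probes, normalized values could not be used, since normalization fixes that share. Array signal near background limits folds to the bounds given.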
